A study of Mus musculus with 12 samples.

Results

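The 10 genes of the immediate-early response described here are Fos, Fosb, Jun, Junb, Egr1, Nr4a1, Dusp1, Ier2, Klf6 and Zfp36. They were chosen by name, with earlier results of these data known. All 10 were found under these names among the 29736 genes listed for LSK cells and the 31042 listed for GMP. The groups were GMP given a STING agonist (3 libraries), GMP of control mice (3 libraries), LSK cells given a STING agonist (3 libraries) and LSK cells of control mice (3 libraries). All 12 libraries were made by Smart-Seq2 from C57BL/6 bone marrow, and the series title states that the mice bore melanoma. The agonist is named as diABZI, a synthetic activator of STING. GMP are granulocyte-monocyte progenitors, and LSK cells are the lineage-negative, Sca-1-positive, Kit-positive fraction that holds the stem and early progenitor cells. The sources used here give no dose, no time after injection, no age and no number of mice or cells per library. Nothing there says that each library is a mouse of its own, and the p-values below therefore measure only the spread between libraries, which may be technical.

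Immediate-early genes are switched on within minutes of a stimulus, without new protein synthesis, when kinases of the MAP kinase and calcium or cyclic AMP pathways modify factors such as SRF with its ELK partners and CREB that already sit at their promoters. FOS and JUN family proteins pair through leucine zippers into the AP-1 transcription factor, EGR1, NR4A1 and KLF6 bind DNA on their own, and DUSP1 and ZFP36 shut the response down by dephosphorylating MAP kinases and by promoting decay of AU-rich messages. In blood progenitors these genes are known to respond to cytokines and inflammatory signals, and also to the handling and dissociation of cells.

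The promoter sequences are shown to describe the elements of the members' proximal promoters. Whether those elements bear on the agonist effect was not tested. The sequences come from RefSeq on build GRCm38.p6 and run 5' to 3' up to the RefSeq start, less any bases that the deposited tables place inside the gene. Capitals mark TGACG, the core of the cyclic AMP response element that CREB and ATF proteins bind, on either strand (CGTCA on the other). Dusp1, Fosb, Fos, Nr4a1 and Klf6 passed the test of the agonist effect in at least 1 cell type, and Junb and Jun passed it in neither. Klf6 and Zfp36 passed in GMP and held no TGACG, while Junb passed in neither cell type and held 1.
Dusp1, chr17:26508520-26508722, minus strand: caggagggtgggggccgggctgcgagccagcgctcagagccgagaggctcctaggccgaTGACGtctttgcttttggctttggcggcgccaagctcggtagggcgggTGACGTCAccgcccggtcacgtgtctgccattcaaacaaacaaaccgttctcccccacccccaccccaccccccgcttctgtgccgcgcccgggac
Fosb, chr7:19310052-19310295, minus strand: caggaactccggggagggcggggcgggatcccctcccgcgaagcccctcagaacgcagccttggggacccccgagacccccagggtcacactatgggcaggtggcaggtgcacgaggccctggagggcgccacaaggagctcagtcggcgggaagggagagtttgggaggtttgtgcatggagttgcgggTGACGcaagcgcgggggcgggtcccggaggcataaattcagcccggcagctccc
Fos, chr12:85473640-85473889, plus strand: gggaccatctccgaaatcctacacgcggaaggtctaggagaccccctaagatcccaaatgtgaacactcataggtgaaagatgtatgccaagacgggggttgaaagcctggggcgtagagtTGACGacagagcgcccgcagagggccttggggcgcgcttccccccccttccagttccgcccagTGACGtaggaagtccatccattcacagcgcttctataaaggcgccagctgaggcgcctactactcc
Nr4a1, chr15:101266596-101266845, plus strand: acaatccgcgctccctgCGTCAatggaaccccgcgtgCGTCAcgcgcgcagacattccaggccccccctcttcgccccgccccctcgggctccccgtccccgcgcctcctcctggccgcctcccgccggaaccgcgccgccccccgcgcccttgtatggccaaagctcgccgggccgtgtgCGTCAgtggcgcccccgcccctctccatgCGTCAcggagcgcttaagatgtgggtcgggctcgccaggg
Klf6, chr13:5861239-5861481, plus strand: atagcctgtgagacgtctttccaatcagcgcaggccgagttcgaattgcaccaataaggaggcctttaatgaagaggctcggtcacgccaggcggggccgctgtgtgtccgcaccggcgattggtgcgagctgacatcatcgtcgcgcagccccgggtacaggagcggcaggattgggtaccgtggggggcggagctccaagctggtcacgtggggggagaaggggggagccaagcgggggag
Junb, chr8:84978749-84978998, minus strand: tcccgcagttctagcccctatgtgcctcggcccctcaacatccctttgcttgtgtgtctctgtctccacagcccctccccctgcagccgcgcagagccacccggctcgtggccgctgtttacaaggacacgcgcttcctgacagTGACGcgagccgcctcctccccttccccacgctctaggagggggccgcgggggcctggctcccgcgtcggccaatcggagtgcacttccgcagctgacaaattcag
Jun, chr4:95052223-95052472, minus strand: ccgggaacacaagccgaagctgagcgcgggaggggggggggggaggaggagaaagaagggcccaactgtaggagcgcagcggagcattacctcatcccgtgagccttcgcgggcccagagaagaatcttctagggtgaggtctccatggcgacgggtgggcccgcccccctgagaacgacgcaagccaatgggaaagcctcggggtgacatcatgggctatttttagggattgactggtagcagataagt

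The Dusp1 promoter held 3 matches to TGACG, of which a pair overlap head to head as the full element TGACGTCA. Nr4a1 held 4 matches, Fos 2, and Fosb and Junb 1 each, whereas Jun, Klf6 and Zfp36 held none in the 250 bases before their RefSeq starts. The whole Zfp36 window lies inside the gene as the deposited positions place it, so its sequence is not printed. TGACG on either strand was thus in 5 of the 8 members for which a window was used, against 17.8% of all 32851 promoter windows of the same length. These letters were chosen after the sequences had been read. The full element TGACGTCA was in Dusp1 among the 8 members and in 1.55% of all windows. The EGR site GCGNGGGCG was in Fosb, Nr4a1 and Zfp36 (4.70% of all windows), the kappaB site in Fos and Fosb (7.25%), and the CArG box, to which SRF binds, in Zfp36 (1.47%). Neither the AP-1 site TGANTCA (6.75% of all windows) nor the interferon-stimulated response element core (2.98%) matched in any of the 8. All motifs were searched on both strands, TGACG is part of TGACGTCA, and a match is a description of letters rather than of a bound site. Bases farther upstream were not searched, so a motif absent here may lie outside the window.

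The libraries held 30649314 to 47225983 counts. The GMP libraries held the primary granule gene Mpo at 22760.0 ± 2664 CPM (counts scaled to a depth of 1e6) after the agonist and 19065 ± 165 CPM in controls (SD, n = 3 each). The libraries labelled LSK had Ly6a, the gene of Sca-1, at 7.08 ± 1.80 CPM after the agonist and 0.579 ± 0.176 CPM in controls, beside the erythroid gene Car2 at 8100.4 ± 1724 and 6719 ± 1585 CPM, so they are called LSK-labelled cells here. The extraction protocol in the labels speaks of single-cell samples and no label gives the number of cells in a library, so whether a library is a pool or a single cell is not known here. If the libraries are pools, fewer cells of a type and less RNA per cell cannot be told apart. All levels are CPM scaled with TMM factors over the 12 libraries. A gene is said to have risen or fallen when edgeR's quasi-likelihood test gave a Benjamini-Hochberg adjusted p under 0.05 over all genes tested in that comparison.

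In GMP, 6 of the 10 genes rose with the agonist (Nr4a1, Dusp1, Fos, Klf6, Fosb and Zfp36) and none fell, where 0.539% of all 15027 genes tested rose. In LSK-labelled cells 2 of the 10 rose (Dusp1 and Fosb) and none fell, where 0.646% of 13922 genes rose. The genes were chosen with earlier results of these data known, so the contrast with all genes is a description and not a test. The libraries of the agonist group lay above all control libraries for 9 of the 10 genes in GMP, against 10.1% of all genes, and for 6 of the 10 in LSK-labelled cells, against 9.78%. These counts are of TMM-scaled levels. With scaling by library size alone, the GMP groups overlapped for Egr1 and Ier2. The lowest agonist and highest control libraries then had 131 and 151 CPM for Egr1, and 496 and 520 CPM for Ier2. The median log2 difference of the 10 genes was 1.20 in GMP, beside -0.04 for all genes tested, and 1.25 in LSK-labelled cells, beside 0.03. Together the 10 genes took 0.662 to 0.870% of all counts in the GMP agonist libraries and 0.264 to 0.448% in the GMP controls. In LSK-labelled cells they took 0.353 to 0.660% after the agonist and 0.183 to 0.385% in controls.

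**Figure D1:**
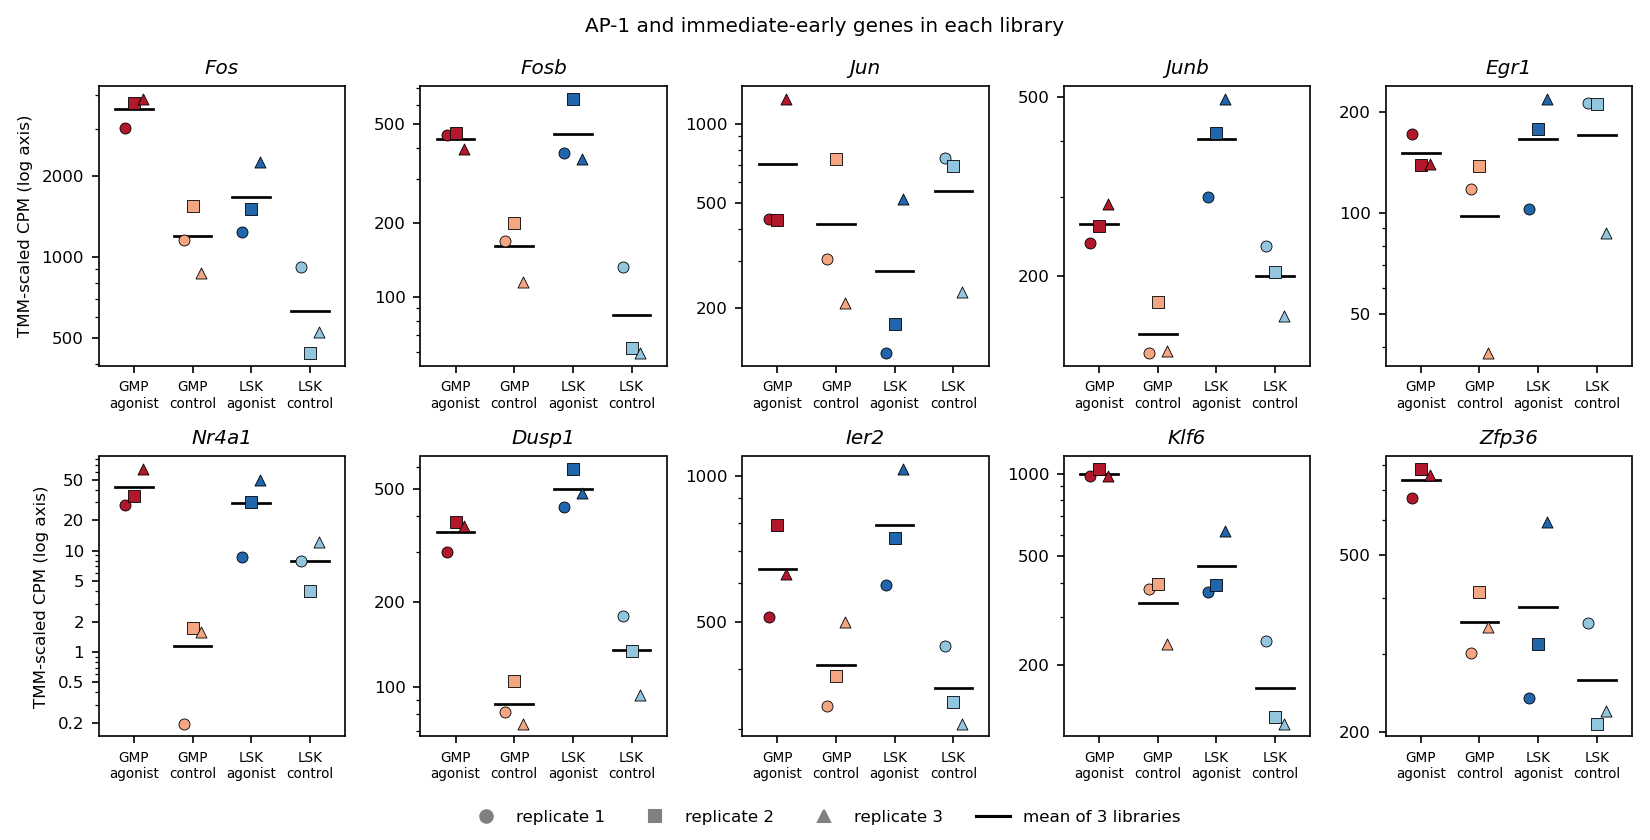
TMM-scaled CPM (log axis, a range of its own for each gene) of the 10 genes in every library, by group; symbols give the replicate number and bars the mean of 3 libraries. The agonist points of GMP lie above the control points for every gene but Jun, and in LSK-labelled cells they do so for Fos, Fosb, Junb, Dusp1, Ier2 and Klf6.

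Among the subunits of AP-1, Fos (chr12:85473890-85477273, plus strand) was the most abundant member. It stood at 3029, 3746 and 3876 CPM in the GMP agonist libraries and at 1157, 1549 and 872 CPM in the GMP controls. Every agonist library was thus well above every control. Fos rose in GMP by 1.52 ± 0.21 on the log2 scale (SE; 2.87-fold; adjusted p = 0.00483). In LSK-labelled cells it stood at 1239, 1506 and 2258 CPM after the agonist and at 919.6, 439 and 528 CPM in controls. These groups did not overlap either, but replicate 1 of the controls came close, and the log2 difference of 1.40 ± 0.31 did not pass the test (adjusted p = 0.0782). Without that control library the adjusted p was 0.0311, and leaving out any other library gave 0.13 to 0.344.

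Fosb (chr7:19302696-19310051, minus strand), a FOS paralogue that pairs with JUN proteins, rose in both cell types. It had 454, 462 and 396 CPM in GMP given the agonist and 169, 199 and 116 CPM in GMP controls. It had 381, 634 and 360.1 CPM in LSK-labelled cells given the agonist and 132, 62.4 and 59.4 CPM in their controls. In both cell types the groups lay apart, and the agonist libraries of the cell types overlapped each other. The rise was 1.39 ± 0.21 (2.62-fold; adjusted p = 0.00852) in GMP and 2.43 ± 0.35 (5.38-fold; adjusted p = 0.0066) in LSK-labelled cells. The call in GMP was lost without agonist replicate 1 (adjusted p = 0.066), without agonist replicate 2 (0.071), without control replicate 1 (0.055) and in a joint fit of all 12 libraries (0.0741). The call in LSK-labelled cells was lost without control replicate 2 (0.0555), without control replicate 3 (0.0613) and with edgeR's older moderation of the spread (0.0528).

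Jun (chr4:95049034-95052222, minus strand), the main partner of FOS, varied most among replicates of the AP-1 subunits. It had 435, 430.3 and 1252 CPM in GMP given the agonist and 305, 737 and 209 CPM in GMP controls. It had 134, 173 and 518 CPM in LSK-labelled cells given the agonist and 745, 693 and 229 CPM in their controls. Groups overlapped in both cell types, with replicate 3 of each agonist group high and replicate 3 of each control group low. The log2 difference was 0.71 ± 0.48 in GMP (adjusted p = 0.623) and -1.02 ± 0.51 in LSK-labelled cells (adjusted p = 0.357). The exons of Jun overlap those of the antisense gene Junos, listed at 0.0256 to 4.31 CPM by library size. A strand setting is not given in the sources used here, so reads of the overlapping exons cannot be told apart.

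Junb (chr8:84974484-84978718, minus strand), which also pairs with FOS proteins and often opposes JUN, had 236, 257 and 288 CPM in GMP given the agonist and 134, 175 and 136 CPM in GMP controls. The LSK-labelled libraries had it at 299.9, 417 and 496 CPM after the agonist and 233, 204 and 163 CPM in controls. The groups lay apart in both cell types. The log2 differences of 0.76 ± 0.18 in GMP (adjusted p = 0.134) and 1.01 ± 0.24 in LSK-labelled cells (adjusted p = 0.118) did not pass the test. The other test used here, DESeq2, called Junb in both (adjusted p = 0.00896 in GMP and 0.00569 in LSK-labelled cells). Junb shares exonic bases with Prdx2 on the opposite strand, which stood at 344 to 557 CPM by library size in GMP and at 1001 to 1717 CPM in LSK-labelled cells, so the source of those reads is uncertain too.

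**Figure D2:**
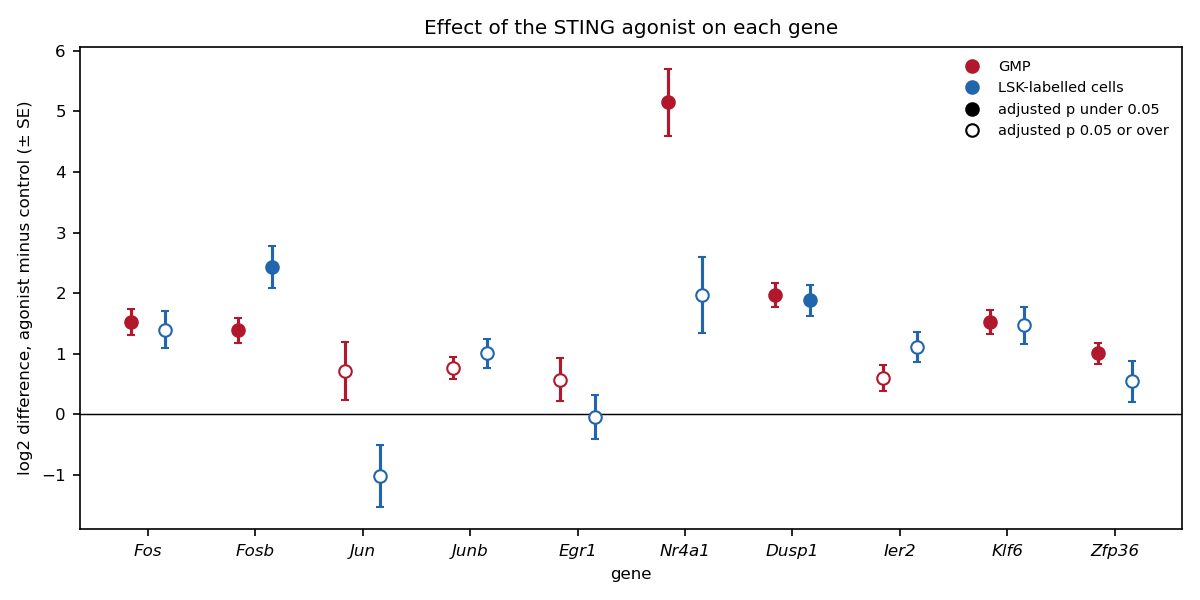
Log2 difference between agonist and control libraries (± SE) for each gene in GMP (red) and LSK-labelled cells (blue), 3 libraries a group; filled points have an adjusted p under 0.05. Nr4a1 in GMP has the highest value (5.15), Dusp1 is at 1.96 in GMP and 1.88 in LSK-labelled cells, and Jun in LSK-labelled cells (-1.02) and Egr1 in LSK-labelled cells (-0.04) lie below 0.

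Of the factors that bind DNA outside AP-1, Nr4a1 (chr15:101266846-101274792, plus strand), an orphan nuclear receptor, was the least abundant member and had the highest fold in GMP. It had 28.4, 34.5 and 63.8 CPM in GMP given the agonist and 0.196, 1.72 and 1.56 CPM in GMP controls, the control values resting on 7, 60 and 55 counts. Every agonist library was thus far above every control. The rise was 5.15 ± 0.55 on the log2 scale (adjusted p = 0.00093). In LSK-labelled cells it had 8.64, 30.3 and 50.4 CPM after the agonist and 7.88, 4.02 and 12.1 CPM in controls. Agonist replicate 1 lay among the controls, and the log2 difference of 1.98 ± 0.63 did not pass the test (adjusted p = 0.198).

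Klf6 (chr13:5861482-5870394, plus strand), a zinc-finger factor of the Krüppel-like family, had 985, 1040.5 and 979 CPM in GMP given the agonist and 378, 396 and 239 CPM in GMP controls. The 3 agonist libraries agreed closely (1002 ± 33.9 CPM, SD, n = 3), and Klf6 rose by 1.52 ± 0.20 (2.87-fold; adjusted p = 0.00294). In LSK-labelled cells it had 369.9, 391 and 616 CPM after the agonist and 244, 129 and 122 CPM in controls. The groups lay apart there too, but the log2 difference of 1.47 ± 0.31 missed the threshold (adjusted p = 0.0648). It passed without control replicate 1 (0.0279), and leaving out any other library gave 0.122 to 0.315.

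Egr1, a zinc-finger factor of chromosome 18 that SRF and ELK factors induce in many cell types, had 172, 139 and 139.9 CPM in GMP given the agonist and 117, 138 and 38.4 CPM in GMP controls. The agonist libraries were just above the controls, of which replicate 3 was low, and the log2 difference was 0.57 ± 0.35 (adjusted p = 0.587). With scaling by library size alone these GMP groups overlapped. In LSK-labelled cells Egr1 had 103, 177 and 218 CPM after the agonist and 212, 210.3 and 87.4 CPM in controls. These groups overlapped, with a log2 difference of -0.04 ± 0.36 (adjusted p = 0.964).

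Ier2 (chr8:84661331-84662852, minus strand), a nuclear protein induced by growth factors, had 512, 794 and 627 CPM in GMP given the agonist and 335, 387 and 499 CPM in GMP controls. It had 594, 744 and 1033 CPM in LSK-labelled cells given the agonist and 445, 342 and 308 CPM in their controls. Neither pair of groups overlapped, although in GMP the lowest agonist library was only just above the highest control. With scaling by library size alone the GMP groups did overlap. The log2 differences were 0.60 ± 0.21 in GMP (adjusted p = 0.313) and 1.11 ± 0.25 in LSK-labelled cells (adjusted p = 0.0813).

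Of the genes that end the response, Dusp1 (chr17:26505590-26508519, minus strand), a phosphatase of p38, JNK and ERK, rose in both cell types by about the same amount. It had 299, 384 and 371 CPM in GMP given the agonist and 81.5, 105 and 74.1 CPM in GMP controls. It had 433, 588 and 485 CPM in LSK-labelled cells given the agonist and 178, 134 and 93.2 CPM in their controls. All agonist libraries stood above all controls by a wide margin. The rise was 1.96 ± 0.20 in GMP (3.90-fold; adjusted p = 0.00061) and 1.88 ± 0.26 in LSK-labelled cells (3.68-fold; adjusted p = 0.00501). The call held in all 6 fits of each cell type that left out 1 library, at adjusted p up to 0.00975 in GMP and 0.0436 in LSK-labelled cells. Its promoter, printed above, holds the full cyclic AMP response element, and a link between that element and the rise was not tested.

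Zfp36 (chr7:28376784-28380253, minus strand), which encodes the RNA-binding protein tristetraprolin, had 674, 781 and 759.7 CPM in GMP given the agonist and 301, 414 and 345 CPM in GMP controls. The groups lay apart, and Zfp36 rose by 1.01 ± 0.18 (2.01-fold; adjusted p = 0.0239). That call was lost without agonist replicate 1 (0.0973), agonist replicate 2 (0.183), agonist replicate 3 (0.148) or control replicate 1 (0.127), with scaling by library size alone (0.0514) and in the joint fit (0.24). In LSK-labelled cells Zfp36 had 238, 316 and 593 CPM after the agonist and 352, 209 and 224 CPM in controls. These groups overlapped, and the log2 difference was 0.54 ± 0.33 (adjusted p = 0.444).

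The calls of Nr4a1, Dusp1, Fos and Klf6 in GMP held in all 6 fits that left out 1 library. The other test, DESeq2, called 7 of the 10 genes in GMP, where it called 2.23% of all genes in either direction, and 6 of the 10 in LSK-labelled cells, where it called 4.25%. With edgeR's older moderation 1 gene, Dusp1, was called in LSK-labelled cells (0.338% of all genes) and the same 6 genes were called in GMP (0.426%). The authors' deposited table for GMP had 7 of the 10 genes higher at an adjusted p under 0.05, where it had 1.59% of its genes higher, and Junb was the gene it added, at an adjusted p of 0.00551. The authors' deposited table for LSK cells had 6 of the 10 genes higher, where it had 2.59% higher, with Dusp1 at an adjusted p of 3.75e-07, Fosb at 1.88e-06, Klf6 at 0.00744, Ier2 at 0.00919, Fos at 0.0123 and Junb at 0.0148. Those tables give fold changes of the same sign as the counts for all 10 genes in both cell types.

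Whether the agonist acted differently in GMP and in LSK-labelled cells was tested as an interaction in the joint fit. That fit takes the 12 libraries as independent, and a link between same-numbered GMP and LSK-labelled libraries was not checked. None of the 10 genes passed edgeR's adjusted threshold, where 0.00593% of 16857 genes did. At an unadjusted p under 0.05 there were 3 of the 10, beside 11% of all genes, and DESeq2, which called 1.09% of all genes, called 0 of the 10. Nr4a1 had the largest value, 3.24 ± 1.05 log2 units more in GMP than in LSK-labelled cells (unadjusted p = 0.00727; adjusted p = 0.353). Fosb had -0.999 ± 0.434 (unadjusted p = 0.0359; adjusted p = 0.425) and Jun 1.77 ± 0.83 (unadjusted p = 0.0487; adjusted p = 0.454). For Dusp1 the difference was 0.13 ± 0.33, for Klf6 0.09 ± 0.39 and for Fos 0.17 ± 0.39, standard errors that leave room for a difference in either direction.

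Levels of some of the members also differed between the cell types. After the agonist Fos, Klf6 and Zfp36 were higher in GMP than in LSK-labelled cells, 3 of the 10 genes where 8.23% of all 16857 genes were higher. Fos averaged 3550.4 ± 456 CPM in GMP and 1668 ± 528 CPM in LSK-labelled cells (SD, n = 3 each), a log2 difference of 1.09 ± 0.28 (adjusted p = 0.0155). Klf6 averaged 1002 ± 33.9 CPM in GMP and 459 ± 136 CPM in LSK-labelled cells, with 1.13 ± 0.28 (adjusted p = 0.0117). Zfp36 averaged 739 ± 56.5 CPM in GMP and 383 ± 187 CPM in LSK-labelled cells, with 0.95 ± 0.29 (adjusted p = 0.0373). For these 3 genes no library of the 2 groups overlapped, where 19.6% of all genes had GMP wholly above. Junb (261 ± 26.2 CPM in GMP and 404 ± 98.6 CPM in LSK-labelled cells; adjusted p = 0.0636) and Dusp1 (351 ± 45.8 and 502 ± 78.7 CPM; adjusted p = 0.165) lay wholly below in GMP, as did 16.5% of all genes, without passing the test. With scaling by library size alone the Junb groups overlapped, at up to 287 CPM in GMP and down to 279 CPM in LSK-labelled cells. Prdx2, which shares exonic bases with Junb, was also lower in GMP, and its part in this difference was not tested. Without LSK-labelled agonist replicate 1 the adjusted p was 0.0835 for Fos, 0.0671 for Klf6 and 0.163 for Zfp36, and without replicate 2 it was 0.0725, 0.0631 and 0.167 for the same genes. The Fos call was also lost without GMP agonist replicate 2 (0.0509) or 3 (0.0636). The Zfp36 call was lost as well without GMP agonist replicate 1 (0.0716), 2 (0.116) or 3 (0.113), without LSK-labelled control replicate 3 (0.0513), without GMP control replicate 3 (0.0509), with scaling by library size alone (0.0554) and with older moderation (0.0732). Junb passed without LSK-labelled agonist replicate 1 (0.0345), and Jun, at 1.36 ± 0.59 (adjusted p = 0.149), passed without LSK-labelled agonist replicate 3 (0.0225). Each passed in that 1 of the 12 fits that left out a library.

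In controls Fos and Klf6 were higher in GMP, 2 of the 10 genes where 9.03% of all genes were higher. Fos averaged 1193 ± 339.8 CPM in GMP and 629 ± 256 CPM in LSK-labelled cells, a log2 difference of 0.92 ± 0.28 (adjusted p = 0.0333). Klf6 averaged 338 ± 85.9 CPM in GMP and 165 ± 68.3 CPM in LSK-labelled cells, with 1.03 ± 0.28 (adjusted p = 0.0185). For both genes the groups overlapped. Fos had 872 CPM in GMP control replicate 3 and 919.6 CPM in LSK-labelled control replicate 1. Klf6 had 239 and 244 CPM in the same libraries. Nr4a1 ran the other way, at 1.16 ± 0.836 CPM in GMP and 7.99 ± 4.02 CPM in LSK-labelled cells, with all GMP libraries below, as for 15.2% of all genes, and a log2 difference of -2.74 ± 0.93 (adjusted p = 0.0509). Fosb, at 161 ± 42.4 CPM in GMP and 84.6 ± 41.1 CPM in LSK-labelled cells, gave 0.93 ± 0.31 (adjusted p = 0.0508), with groups that overlapped. Both genes passed with DESeq2 (0.0017 for Nr4a1 and 0.0211 for Fosb) and with no filter on low counts (0.0437 and 0.0263). Nr4a1 passed with older moderation (0.0376) and Fosb with DESeq2's size factors in edgeR (0.0389). Without LSK-labelled control replicate 2 the adjusted p was 0.142 for Fos and 0.0874 for Klf6, and without replicate 3 it was 0.103 and 0.0719. Without GMP control replicate 1 it was 0.0748 and 0.0719, and without GMP control replicate 2 it was 0.121 and 0.0568. The Fos call was also lost with scaling by library size alone (0.0537) and with older moderation (0.0738). Without LSK-labelled control replicate 1 Fosb passed (0.00419), as it did without GMP control replicate 3 (0.0387) or LSK-labelled agonist replicate 2 (0.0347) or 3 (0.0447). Nr4a1 passed without LSK-labelled agonist replicate 1 (0.0187) or 3 (0.0442), and Dusp1, at -0.64 ± 0.24 (adjusted p = 0.079), without LSK-labelled control replicate 3 (0.0327). Of the 12 fits that left out a library, Nr4a1 thus passed in 2 and Dusp1 in 1. The GMP control group is part of both this contrast and the agonist effect in GMP, and the LSK-labelled control group likewise, so the values of the contrasts are not independent.

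**Figure D3:**
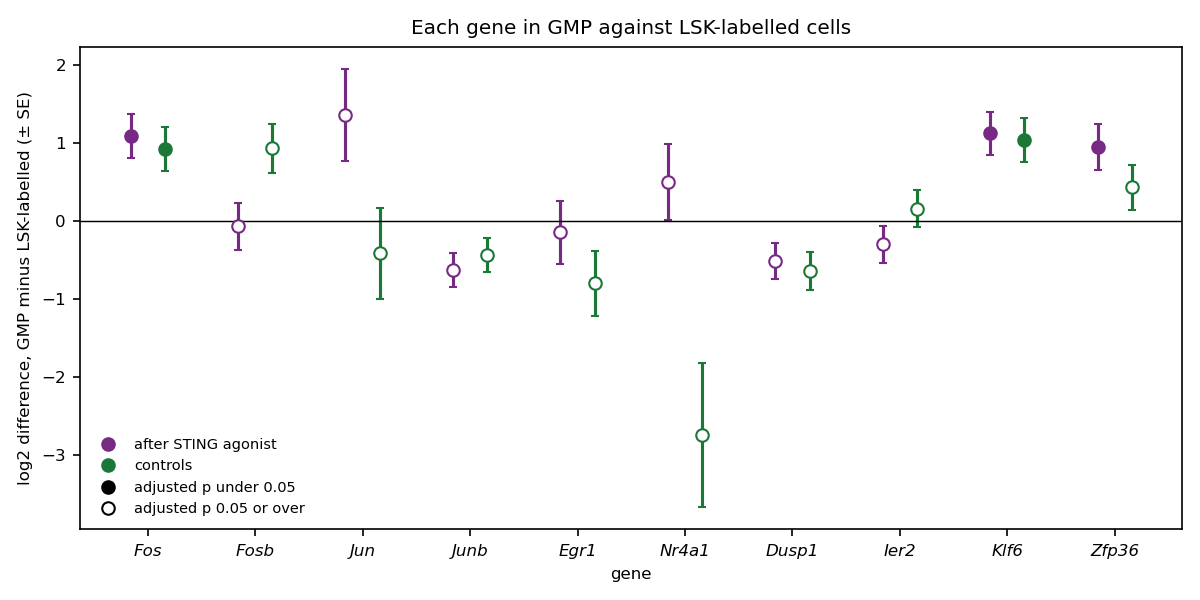
Log2 difference between GMP and LSK-labelled cells (± SE) for each gene after the agonist (purple) and in controls (green), 3 libraries a group; filled points have an adjusted p under 0.05. Fos and Klf6 are near 1 in both states, and Nr4a1 is at 0.50 after the agonist and at -2.74 in controls.

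Per exonic kilobase, the scale on which levels of different genes can be compared, Fos stood first of the 10 genes in all 4 groups and Nr4a1 last. Fos had 1510 ± 194 CPM per kb in GMP given the agonist, where it ranked 20 to 28 among 30950 genes, and 507 ± 144 CPM per kb in GMP controls, where it ranked 36 to 101. In LSK-labelled cells Fos had 709 ± 225 CPM per kb after the agonist and 267 ± 109 CPM per kb in controls. Ier2 came next in every group, at 423 ± 93.0 CPM per kb in GMP given the agonist and 267 ± 55.1 in GMP controls, and at 519 ± 147 in LSK-labelled cells given the agonist and 239.9 ± 46.9 in their controls. In LSK-labelled controls the spread of Fos and Ier2 overlapped. Behind them in GMP given the agonist came Klf6 (228 ± 7.71), Jun (221 ± 148) and Zfp36 (213 ± 16.3 CPM per kb), whose means lay within the spread of Jun.

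The balance of the AP-1 subunits was read as the ratio of Fos to Jun per kilobase, a ratio picked after the values had been seen and therefore given without a test. It was 9.44, 11.8 and 4.20 in GMP given the agonist and 5.14, 2.85 and 5.67 in GMP controls. It was 12.5, 11.8 and 5.91 in LSK-labelled cells given the agonist and 1.67, 0.858 and 3.12 in their controls. The LSK-labelled groups did not overlap, whereas in GMP replicate 3 of the agonist group lay among the controls. In 1 library, LSK-labelled control replicate 2, Jun exceeded Fos.

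**Figure D4:**
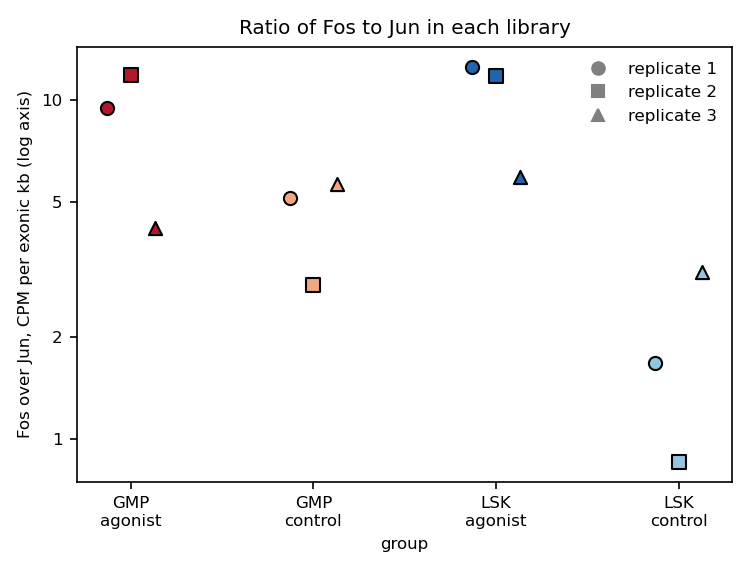
Ratio of Fos to Jun, each in CPM per exonic kb, in every library (log axis), with symbols for the replicate number. The LSK-labelled agonist libraries lie between 5.91 and 12.5 and their controls between 0.858 and 3.12, while the GMP groups overlap.

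Within a group, the same library was often the highest or the lowest for several members. Among LSK-labelled agonist libraries replicate 3 was the highest for 8 of the 10 genes and replicate 1 the lowest for 9. Among LSK-labelled controls replicate 1 was the highest for 9. Among GMP controls replicate 2 was the highest for 9 and replicate 3 the lowest for 6. In the GMP agonist group the highest library was replicate 1 for 1 gene, replicate 2 for 5 and replicate 3 for 4, and replicate 1 was the lowest for 6. How many other genes follow the same libraries was not counted.

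Some of these libraries also stood apart in other cells' markers. The summed level of 8 neutrophil markers was 12.9, 5.03 and 375 CPM in the LSK-labelled agonist libraries and 14.7, 6.12 and 8.34 CPM in their controls. It was 26.6, 23.1 and 38.5 CPM in GMP given the agonist and 27.3, 22.4 and 380.4 CPM in GMP controls, so replicate 3 was high in 1 group of each cell type. Without LSK-labelled agonist replicate 3, Fosb (log2 difference 2.58; adjusted p = 0.0144) and Dusp1 (1.91; 0.0185) kept their calls. Without GMP control replicate 3, all 6 genes called in GMP kept theirs, with Zfp36 closest to the threshold (1.04; 0.046).

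Marker sums of other progenitors were also read in LSK-labelled cells. The 8 GMP markers summed to 4029, 1634 and 11090.3 CPM in the LSK-labelled agonist libraries and to 4029, 819 and 4268 CPM in their controls, so agonist replicate 3, the library with the most members at their highest, was also the highest there, and none of the 8 passed the test. These groups overlapped. The dendritic markers, 7 of them listed, summed to 403 to 565 CPM in LSK-labelled cells given the agonist and to 97.5 to 227 CPM in their controls, without overlap. Of the 4 tested 1 rose, where 0.646% of all genes in LSK-labelled cells rose. It was Bst2, which is also an interferon-stimulated gene, while Clec9a was not listed and Siglech was at 0 in the controls. The 8 LSK markers summed to 212 to 357 CPM after the agonist and to 393 to 607 CPM in controls, again without overlap, while 1 of the 7 tested rose, Ly6a, and none fell. In GMP the dendritic sums were 778 to 866 CPM after the agonist and 612 to 1049 CPM in controls, and the LSK marker sums were 729 to 787 CPM after the agonist and 727 to 865 CPM in controls, with overlap in both. The LSK marker sums were thus higher in GMP than in the LSK-labelled libraries. Kit and Cd34 belong to both the LSK and the GMP list, and Flt3 to both the LSK and the dendritic list. The 8 erythroid markers summed to 10740 to 16335 CPM in LSK-labelled cells given the agonist and to 8033 to 13521 CPM in their controls. In GMP they summed to 47.5 to 57.7 CPM after the agonist and 76.9 to 88.1 CPM in controls. No erythroid marker passed the test of the agonist effect in either cell type.

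A list of 8 megakaryocyte and platelet markers was lower in LSK-labelled cells given the agonist. Its sum was 18.5 to 51.7 CPM in LSK-labelled cells given the agonist and 148 to 316 CPM in their controls. Of the 7 tested 2 fell, where 14 of all 13922 genes fell. In GMP the sum was 22.6 to 36.7 CPM after the agonist and 33.5 to 98.7 CPM in controls, and 1 of 7 fell, where 11 of all 15027 genes fell. Treml1 and Ppbp of that list were at 0 in all agonist libraries where they were listed. The share of mitochondrial counts was 1.24 to 1.96% in GMP given the agonist and 2.13 to 3.52% in GMP controls, and 2.72 to 3.61% in LSK-labelled cells given the agonist and 1.70 to 2.41% in their controls. Genes of ribosomal RNA, mitochondrial ones included, took 0.418 to 0.675% of counts in GMP given the agonist and 0.853 to 2.59% in GMP controls, and 0.852 to 1.09% in LSK-labelled cells given the agonist and 0.473 to 1.48% in their controls. The part of these differences in the results on the 10 genes was not tested.

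**Figure D5:**
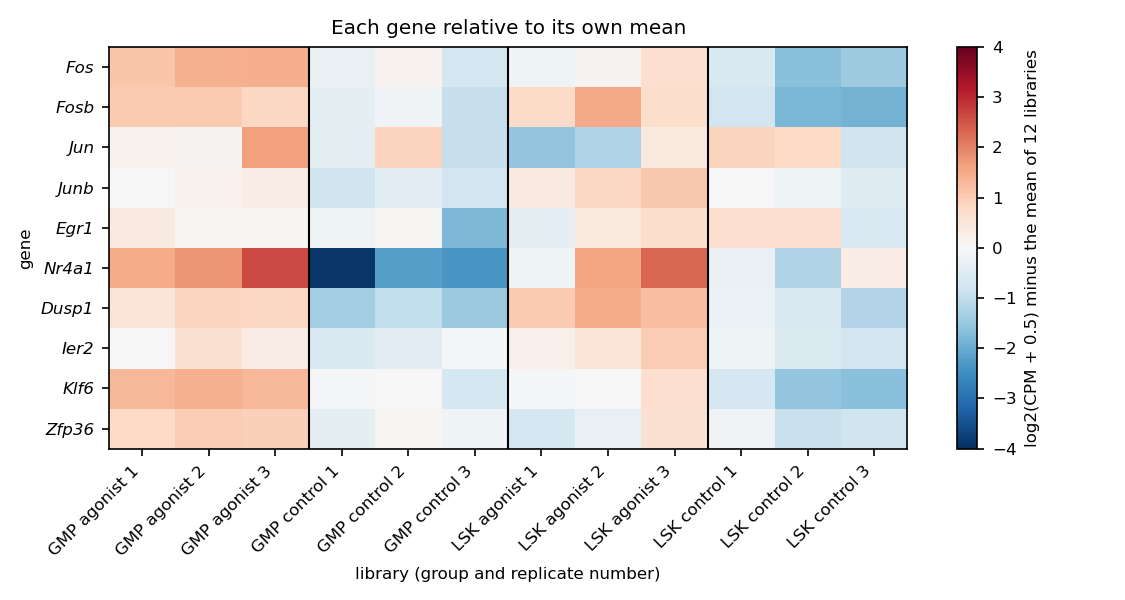
Log2(CPM + 0.5) of each gene minus its mean over the 12 libraries (colour scale), with libraries in columns by group and replicate and genes in rows. GMP agonist columns are red for most genes and GMP control columns blue, and in LSK-labelled cells agonist replicate 3 and control replicate 1 carry the higher values of their groups.

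Other genes of the same network were read from lists, which were also chosen with earlier results of these data known. Of 16 possible AP-1 partners, 13 were tested in each cell type, and 1 rose in each while none fell. That gene was Atf3, which pairs with JUN proteins and is induced by stress and by innate immune signals. It had 96.7, 164 and 96.0 CPM in GMP given the agonist and 34.7, 20.7 and 8.10 CPM in GMP controls. It had 86.1, 160.3 and 111 CPM in LSK-labelled cells given the agonist and 3.07, 0.104 and 0.596 CPM in their controls. Both agonist groups averaged 119 CPM, and the LSK-labelled controls were close to 0. The rise was 2.44 ± 0.40 in GMP (adjusted p = 0.0155) and 6.66 ± 0.57 in LSK-labelled cells (adjusted p = 0.000102), and the difference between them, -4.18 ± 0.86 for GMP minus LSK-labelled cells, had an adjusted p of 0.279. The GMP call of Atf3 was lost without agonist replicate 1 (0.0523), 2 (0.128) or 3 (0.0801) and without control replicate 2 (0.0573). The list had a median log2 difference of 0.08 in GMP, beside 0.50 in LSK-labelled cells. Of the 13 tested, 5 lay wholly above their controls in GMP (10.1% of all genes) and 3 in LSK-labelled cells (9.78% of all genes).

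Of 29 other immediate-early genes, 1 of 22 tested rose in GMP (0.539% of all genes) and 1 of 23 in LSK-labelled cells (0.646%), and none fell. An unadjusted p under 0.05 was reached by 10 in GMP (11.5% of all genes) and by 9 in LSK-labelled cells (15.9%). The gene that rose was in both cell types Klf2, a Krüppel-like factor that holds lymphocytes and monocytes quiescent. Klf2 had 146, 162 and 66.2 CPM in GMP given the agonist and 31.9, 25.6 and 28.8 CPM in GMP controls. It had 22.2, 23.8 and 44.1 CPM in LSK-labelled cells given the agonist and 4.53, 0.479 and 4.20 CPM in their controls. Neither pair of groups overlapped. The rise was 2.06 ± 0.32 in GMP (adjusted p = 0.00979) and 3.42 ± 0.61 in LSK-labelled cells (adjusted p = 0.0242). The GMP call was lost without agonist replicate 1 (0.0735) or 2 (0.0797) and without control replicate 1 (0.0576). The LSK-labelled call was lost without any 1 of the 6 libraries, at adjusted p of 0.0719, 0.0595 and 0.0761 without agonist replicates 1, 2 and 3 and of 0.0833, 0.103 and 0.0777 without control replicates 1, 2 and 3. This list had a median log2 difference of 0.52 in GMP, beside 0.75 in LSK-labelled cells, with 12 of the 22 tested in GMP lying wholly above their controls (10.1% of all genes) and 6 of the 23 tested in LSK-labelled cells (9.78% of all genes).

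Of 39 genes of the MAP kinase route to SRF and CREB, none passed edgeR's test among 38 tested in GMP or 37 tested in LSK-labelled cells. An unadjusted p under 0.05 was reached by 1 in GMP, where 11.5% of all genes reached it, and by 5 in LSK-labelled cells, where 15.9% did. DESeq2 called 0 in GMP (2.23% of all genes) and 3 in LSK-labelled cells (4.25% of all genes). Mapk3, the gene of ERK1, had the smallest p in GMP (log2 difference -0.75 ± 0.28; adjusted p = 0.333), and Map3k8, the gene of the kinase TPL2, had it in LSK-labelled cells (-5.94 ± 1.60; adjusted p = 0.166). The median log2 difference of the list in GMP was -0.0001, and that in LSK-labelled cells -0.11. These are messages, and the phosphorylation through which the route acts was not measured.

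Of 19 further feedback regulators, 18 were tested in each cell type. By edgeR 1 rose in GMP (0.539% of all genes) and none in LSK-labelled cells (0.646%). An unadjusted p under 0.05 was reached by 6 in GMP (11.5% of all genes) and by 5 in LSK-labelled cells (15.9%). DESeq2 called 2 in GMP (2.23% of all genes) and 1 in LSK-labelled cells (4.25%). The gene that rose in GMP by edgeR was Tsc22d3, which encodes the glucocorticoid-induced protein GILZ. It had 173, 209 and 200.4 CPM in GMP given the agonist and 79.8, 106 and 62.9 CPM in GMP controls, a rise of 1.18 ± 0.22 (adjusted p = 0.0325). The groups lay apart, but the call was lost without agonist replicate 1 (0.11), 2 (0.226) or 3 (0.214) and without control replicate 1 (0.147) or 3 (0.0666). In LSK-labelled cells the smallest p of the list was that of Zfp36l2, a relative of Zfp36, at 0.95 ± 0.22 (adjusted p = 0.107).

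Heat-shock chaperones, whose messages also rise when cells are stressed or handled, were read beside the members. Their summed level was 13526 to 15133 CPM in GMP given the agonist and 10971 to 12694 CPM in GMP controls, and it was 15657 to 17859 CPM in LSK-labelled cells given the agonist and 15454 to 18889 CPM in their controls. In GMP none of 14 tested passed edgeR's test, 4 had an unadjusted p under 0.05 (11.5% of all genes) and DESeq2 called 1 (2.23% of all genes). All 14 had a positive log2 difference in GMP, with a median of 0.24 beside -0.04 for all genes, and 6 of them lay wholly above the controls, against 10.1% of all genes. In LSK-labelled cells 1 of 15 rose, where 0.646% of all genes rose. It was Hspa1a, an inducible HSP70, at 9.03, 5.55 and 17.5 CPM after the agonist and 0.359, 0 and 1.31 CPM in controls (log2 difference 4.49 ± 0.95; adjusted p = 0.0431). That call was lost without agonist replicate 1 (0.128) or 3 (0.11) and without control replicate 1 (0.241), 2 (0.278) or 3 (0.107). In GMP Hspa1a had 12.5, 16.6 and 31.6 CPM after the agonist and 3.28, 5.78 and 1.22 CPM in controls (2.53 ± 0.53; adjusted p = 0.0648). Whether chaperone levels have a part in the results on the 10 genes was not tested.

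The genes whose levels ran most like the mean of the 10 over the 12 libraries were Tsc22d3, Shisa5, Tap1, Btg2, H2-K1 and H2-T22, out of 9133 genes compared. Their root mean square differences from the centred mean, in log2 units, were 0.282, 0.285, 0.309, 0.325, 0.390 and 0.406, where the mean pattern itself had a root mean square of 0.737. Of the 10 members Ier2 lay closest to their mean (0.425) and Nr4a1 farthest (1.40), followed by Jun (0.985). Among the genes most like Dusp1 were Dennd4a (0.347), H2-Q5 (0.350), H2-Q7 (0.412), Rnf213 (0.422) and H2-Q6 (0.435), where the pattern of Dusp1 had a root mean square of 1.05. H2-Q5, for instance, averaged 49.5 CPM in GMP given the agonist and 14.6 CPM in GMP controls, and 78.8 CPM in LSK-labelled cells given the agonist and 19.1 CPM in their controls.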

How the data were processed

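Smart-Seq2 libraries of GMP and LSK cells, 3 per group, were given as gene counts in 1 table per cell type. Counts per gene and library are the deposited raw counts, per the file headers, and the same tables hold the authors' log2 fold changes, fold values, p-values, adjusted p-values and base means; the base mean, a signal value deposited by the authors under that header, was not used. No source used here names the counting program or its strand setting. Build mm9 is the one named by the submitters' processing notes, but 94.6% of the LSK gene positions and 94.8% of the GMP positions that the tables give are those of GRCm38, so positions are given as the tables have them.

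The libraries were compared with edgeR 4.0.16 (R 4.3.3): TMM scaling, filterByExpr, quasi-likelihood fits with default moderation, no covariate, and Benjamini-Hochberg adjustment over all genes tested. Each cell type was fitted alone (13922 genes for LSK, 15027 for GMP), and the interaction and the contrasts between cell types came from a joint fit of the 12 libraries (16857 genes in both tables). All 10 members passed every filter. The SE of each log2 difference was derived from the test, as its absolute value divided by the square root of the F statistic. CPM were scaled with the TMM factors of the joint fit, and 0.5 CPM was added before logarithms. Levels per kb used the exonic bases of GENCODE M21. The chi-square per degree of freedom between replicates of a group ran between 33.3 and 220, so no library was counted as a duplicate. Alternatives were DESeq2 1.42.0, other scalings, no filter, older moderation, a replicate block, the joint fit and leaving out each library.

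The members and gene lists were chosen with earlier results of these data known. All 10 members are named in each comparison; from the other lists the genes called are named (up to 6, by smallest p) and otherwise 1 example by smallest p, and similar genes are the 6 nearest with at least 5 CPM on average, of which 1 is not reported here. Same-numbered agonist and control libraries of a cell type did not deviate together, and nothing in the labels pairs them, so the main fits hold no block. Whether same-numbered GMP and LSK-labelled libraries deviate together was not checked, and the joint fit takes them as independent. Promoters were matched by symbol in RefSeq; 8 of the 10 members had a window that was used, and 1 empty line in each table was left out.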

Additional observations from a re-analysis of the deposited data

How the results depend on the processing

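Counts of calls depended on the tool and on single libraries. In LSK-labelled cells edgeR called 104 genes and 2 of the 10 members. It called 187 genes and 5 members with no filter on low counts, 47 and 1 with older moderation, and 222 and 6 in the joint fit, and DESeq2 called 519 and 6. In GMP edgeR called 92 genes and 6 members, against 302 genes with no filter and 334 with DESeq2, and Jun passed with no filter (adjusted p = 0.0129). The interaction called 1 gene, against 2 with DESeq2's size factors in edgeR, 3 with library size alone, 7 with no filter, 176 with DESeq2 and 0 with older moderation. Between cell types in controls older moderation called 1943 genes against 3060, and library size alone called 1 member, no filter 4 and DESeq2 4, against 2. After the agonist older moderation called 1588 genes against 2525.

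No pairing is stated: correlations of same-numbered deviations were -0.03 to 0.10 in LSK-labelled cells and -0.03 to 0.07 in GMP. With the replicate number as a block the counts were 44 genes and 0 members in LSK-labelled cells (Fosb 0.061, Dusp1 0.0566), 60 genes in GMP (Zfp36 lost, 0.0683) and 0 for the interaction. Between cell types in controls Fos was lost (0.0601) while Fosb (0.0394) and Nr4a1 (0.0144) passed.

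Leaving out 1 library gave 50 to 91 genes and 1 to 4 members in LSK-labelled cells, 49 to 97 and 4 to 6 in GMP, and 0 to 7 genes and 0 members for the interaction. Between cell types it gave 1722 to 3002 genes and 0 to 4 members in controls, and 1514 to 2648 and 0 to 4 after the agonist.

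Signs turned only for log2 values near 0, and only when a library was left out. The agonist effect on Egr1 in LSK-labelled cells ranged between -0.36 and 0.20. The interaction ranged between -0.33 and 0.36 for Klf6, between -0.24 and 0.45 for Fos and between -0.15 and 0.30 for Dusp1. Between cell types Ier2 ranged between -0.017 and 0.36 in controls, and after the agonist Fosb ranged between -0.19 and 0.25 and Egr1 between -0.40 and 0.13. Of 800 alternative values of the members' log2 differences, 712 kept their direction and call. The cause of these changes was not tested. With 3 libraries a group, the common coefficient of variation between libraries reached 54.0% for GMP and 74.0% for LSK-labelled cells, which limits the differences that could be called.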
